A study of Mus musculus with 4 samples.

Results

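The urokinase system, the matrix metalloproteinases (MMPs) and the tissue inhibitors of metalloproteinases (TIMPs) were followed in MC38, a mouse colon cancer cell line, after exposure to 5-fluorouracil (5-FU). The 9 genes are Plau, Plaur, Mmp3, Mmp9, Mmp10, Mmp13, Mmp14, Timp1 and Timp2. They were taken by symbol from a deposited expression table of 36445 genes, in which each had 1 entry. The control group was MC38 cells given PBS and the other group was MC38 cells given 5-FU at 1 mM, both for 24 h and both grown in serum-containing medium. Each group held 2 libraries of polyadenylated RNA. MC38 is 1 cell line, and the labels do not say whether the replicates were separate cultures, so p-values reflect the spread of these libraries, which may be a technical one. 5-FU is a base analogue used against colon cancer that disturbs thymidylate supply and RNA.

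Urokinase, the product of Plau, is a secreted serine protease that binds its membrane-anchored receptor, encoded by Plaur, and cuts plasminogen to plasmin at the cell surface. Plasmin digests fibrin and matrix proteins and can activate several MMP precursors. MMPs are zinc proteases that together degrade collagens and most other matrix proteins, and TIMPs bind their active sites and block them. In tumours these genes are expressed by cancer cells, fibroblasts and infiltrating leukocytes.

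Values are FPKM, a unit corrected for transcript length as well as sequencing depth, so levels can be compared between genes. Depth, estimated from the FPKM steps, reached 41.3 and 41.6 M reads for PBS and 20.8 and 20.6 M for 5-FU. Genes that reached 1 FPKM in 2 or more libraries were tested with limma on log2(FPKM + 1), and a Benjamini-Hochberg adjusted p under 0.05 counted as passing. The median log2 difference of the 11644 tested genes was -0.10. The PBS libraries lay further apart than the 5-FU libraries (median absolute log2 difference 0.27 against 0.073 over tested genes). The 10 colon epithelial markers were all below 1 FPKM in every library, with Epcam at 0 in both PBS libraries and at most 0.0475 in 5-FU. The 9 mesenchymal markers were all testable, with Vim between 890 and 1069 FPKM. Of them, 1 passed as higher in 5-FU (S100a4), 3 as lower (Fn1, Snai2 and Twist1) and 5 did not pass, Vim among them. Over all tested genes, 22.1% passed as higher and 31.2% as lower. Mean Fn1 was 488.6 FPKM in PBS and 222.5 FPKM in 5-FU, and mean S100a4 204.6 and 441.7 FPKM. Of 13 leukocyte and macrophage markers, 11 were below 1 FPKM throughout, Ptprc (at most 0.0342) and Itgam (at most 0.00760) among them, while Cd68 lay between 6.29 and 19.3 FPKM and Lyz2 between 1.57 and 3.19 FPKM. Of 8 fibroblast markers, 4 were below 1 FPKM throughout, Col3a1 lay between 10.4 and 13.3 FPKM, and Pdgfra fell from 10.4 and 18.5 FPKM in PBS to 5.42 and 5.07 FPKM in 5-FU (limma adjusted p = 0.0204).

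Of the 9 genes, 4 passed the expression filter (Plaur, Mmp14, Timp1 and Timp2) and 5 did not. After 5-FU, Plaur and Timp1 rose (2 of 4 tested), and 0 members fell. Of all 11644 tested genes, 22.1% passed as higher and 31.2% as lower. Before adjustment, 0 members were lower at a limma p under 0.05. Mmp14 and Timp2 did not pass, and Plau was close to 0 in all libraries. The levels spanned the range from single reads to 189.3 FPKM. In PBS the order of mean level was Timp1, Plaur, Mmp14 and Timp2, and the last 3 of these did not differ beyond the spread of their libraries. In 5-FU it was Plaur, Timp1, Mmp14 and Timp2, where Plaur (181 and 183.3 FPKM) fell inside the range of Timp1 (168.2 and 189.3 FPKM).

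**Figure D1:**
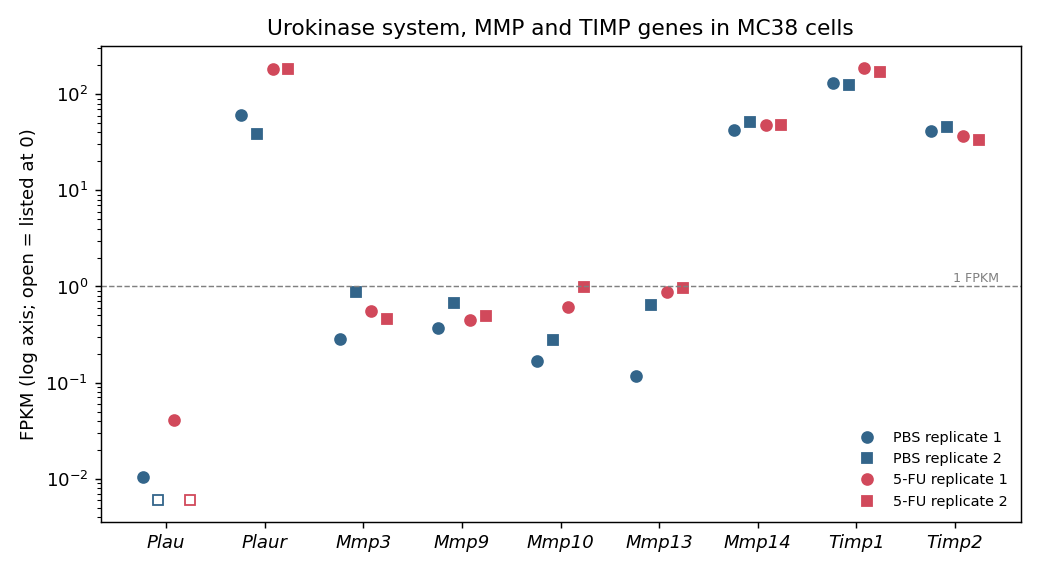
FPKM (log axis) of the 9 genes in each of the 4 libraries; circles are replicate 1, squares replicate 2, and open symbols drawn at the bottom are values listed at 0. Plaur, Mmp14, Timp1 and Timp2 lie above the dashed line at 1 FPKM in every library, and the other 5 genes lie below it in every library.

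Plaur encodes the urokinase receptor, a protein held to the membrane by a lipid anchor. It lies on chromosome 7, from 24462484 to 24475968 on the plus strand (GRCm38). It measured 60.4 and 38.6 FPKM in PBS replicates 1 and 2 and 183.3 and 181 FPKM in 5-FU replicates 1 and 2. Both 5-FU libraries were far above both PBS libraries and close to each other, while the PBS libraries differed. The mean rose 3.68-fold, with means of 49.5 ± 15.4 FPKM in PBS and 182.2 ± 1.62 FPKM in 5-FU (SD, n = 2 each). The log2 difference was 1.89 ± 0.23 (SE, limma adjusted p = 0.00497), the 142nd highest of the 11644 tested genes. Plaur stood among the top 8.98% and 14.5% of genes with at least 1 FPKM in the PBS libraries and among the top 3.02% and 3.01% in the 5-FU libraries. It passed in each of the 15 alternative settings, with log2 differences between 1.58 and 2.21. In bulk RNA a change in the share of cells expressing a gene and a change in RNA per cell cannot be told apart.

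Plau, on chromosome 14 from 20836660 to 20843385, was nearly unread. It was listed at 0.0103 and 0 FPKM in PBS and at 0.0410 and 0 FPKM in 5-FU, which correspond to about 1, 0, 2 and 0 reads. A count of 3 reads would be 0.0307 and 0.0305 FPKM in the PBS libraries and 0.0608 and 0.0615 FPKM in the 5-FU libraries, so no difference was detectable at this depth. The receptor transcript was thus abundant in cells whose own urokinase transcript was at or under that floor.

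The other genes of plasminogen activation moved in both directions. Of 24 listed partners found in the table, 12 were tested, of which 2 rose, 7 fell and 3 did not pass. Their median log2 difference was -0.82. Over all tested genes, 22.1% passed as higher and 31.2% as lower. Plat encodes tissue plasminogen activator, the other activator of plasminogen. It measured 14.7 and 25.6 FPKM in PBS and 4.27 and 5.17 FPKM in 5-FU, and fell 4.27-fold (log2 difference -1.84, adjusted p = 0.00789). Both 5-FU libraries were below both PBS libraries, and PBS replicate 2 was the higher of its pair. Lrp1, an endocytic receptor that clears protease and inhibitor complexes, fell 4.55-fold, from 8.18 ± 3.09 to 1.80 ± 0.0719 FPKM (n = 2 per group, limma adjusted p = 0.00823).

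The 2 partners that rose were Plgrkt and S100a10. Plgrkt, a plasminogen receptor, measured 7.72 and 7.36 FPKM in PBS and 13.1 and 13.8 FPKM in 5-FU (log2 difference 0.76, adjusted p = 0.00834). S100a10, the partner of annexin A2, measured 249.8 and 220.6 FPKM in PBS and 428.9 and 419 FPKM in 5-FU (log2 difference 0.85, adjusted p = 0.00634). Anxa2 itself had means of 305.4 and 276.6 FPKM and did not pass (adjusted p = 0.334). Another listed partner, Eno1, had means of 727 FPKM in PBS and 496.8 FPKM in 5-FU and did not pass (limma adjusted p = 0.0994). Plasminogen itself, encoded by Plg, was listed at 0 in all 4 libraries. Leaving out 5-FU replicate 1 or 2 ended both calls (Plgrkt 0.123 and 0.154, S100a10 0.0860 and 0.0779, adjusted p) with similar log2 differences (Plgrkt 0.79 and 0.72, S100a10 0.83 and 0.87), and left 3 or 4 genes lower, while 2 or 3 were higher and 7 or 8 lower without PBS replicate 1 or 2.

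**Figure D2:**
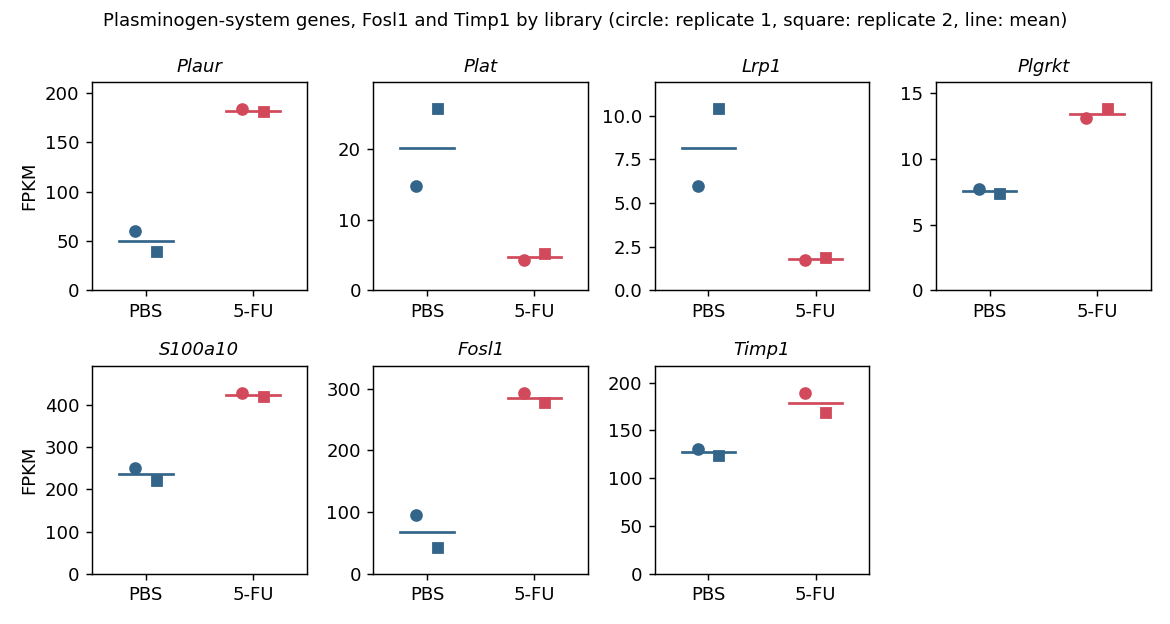
FPKM of Plaur, plasminogen-system partners, Fosl1 and Timp1 in each library (circle: replicate 1, square: replicate 2, line: group mean, each axis from 0). Plaur, Plgrkt, S100a10, Fosl1 and Timp1 are higher and Plat and Lrp1 lower in both 5-FU libraries, and the PBS pair is widely split for Fosl1.

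Among the 5 MMP members, Mmp14 supplied nearly all of the transcript. Mmp14 encodes MT1-MMP, a membrane-anchored collagenase that also activates the MMP-2 precursor together with TIMP-2. The gene lies on chromosome 14, from 54431612 to 54445364. It measured 42.3 and 50.8 FPKM in PBS and 48.3 and 48.3 FPKM in 5-FU. The 5-FU values lay between those of the PBS libraries. The log2 difference was 0.06 ± 0.13 (SE, limma adjusted p = 0.733), and its sign turned under 4 of 15 alternative settings. Without PBS replicate 2 it was 0.19 at adjusted p = 0.0298. Mmp14 made up 97.8% and 95.4% of the summed FPKM of the 5 MMP members in PBS and 95.1% and 94.3% in 5-FU. Of the summed FPKM of 23 listed MMP genes it made up 66.3% and 56.6% in PBS and 76.5% and 76.8% in 5-FU, and Mmp11, described with the other MMP genes, 30.5% and 37.5% in PBS and 16.4% and 15.6% in 5-FU. The sums over the 5 members were 43.3 and 53.3 FPKM in PBS and 50.8 and 51.2 FPKM in 5-FU.

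Mmp10 and Mmp13 were low, with both 5-FU libraries above both PBS libraries. The same order held in 35.8% of all tested genes, a set without genes this low, for which no share was computed. Mmp10 encodes stromelysin-2, which degrades proteoglycans and activates other MMPs. It measured 0.169 and 0.279 FPKM in PBS (12 and 20 estimated reads) and 0.614 and 0.987 FPKM in 5-FU (22 and 35). Mmp13 encodes collagenase-3, the main rodent interstitial collagenase. It measured 0.118 and 0.647 FPKM in PBS (13 and 72 estimated reads) and 0.880 and 0.961 FPKM in 5-FU (49 and 53). The 95% exact Poisson interval of PBS replicate 2 of Mmp13 (0.506 to 0.815 FPKM) overlapped those of both 5-FU libraries (0.651 to 1.16 and 0.720 to 1.26). That of PBS replicate 2 of Mmp10 (0.170 to 0.431 FPKM) overlapped that of 5-FU replicate 1 (0.384 to 0.929) but not that of 5-FU replicate 2 (0.687 to 1.37). Neither gene passed when the filter on low values was dropped (adjusted p = 0.0791 for Mmp10 and 0.223 for Mmp13). These intervals cover counting error only.

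Mmp3 and Mmp9 overlapped between the groups. Mmp3 encodes stromelysin-1 and measured 0.283 and 0.882 FPKM in PBS (21 and 66 estimated reads) and 0.561 and 0.458 FPKM in 5-FU (21 and 17). Mmp9 encodes gelatinase B, which cuts denatured and basement membrane collagen, and lies on chromosome 2 from 164940780 to 164955850. It measured 0.369 and 0.665 FPKM in PBS (54 and 98 estimated reads) and 0.448 and 0.493 FPKM in 5-FU (33 and 36). For both genes the 5-FU libraries lay between the PBS libraries. With no filter, the adjusted p was 0.901 for Mmp3 and 0.835 for Mmp9. In all 4 low MMPs the second PBS replicate exceeded the first, and the Poisson intervals of the PBS pair did not overlap for Mmp3, Mmp9 and Mmp13. Summed over the 4 genes, the level was 0.938 and 2.47 FPKM in PBS and 2.50 and 2.90 FPKM in 5-FU. The summed level of 13 leukocyte and macrophage markers was also lowest in PBS replicate 1, at 8.89 and 23.3 FPKM in PBS and 20.9 and 20.1 in 5-FU. Most of it was the lysosomal gene Cd68. PBS replicate 1 also had the lowest sum for the mesenchymal markers (1709 and 1777 FPKM in PBS, 1831 and 1811 in 5-FU). The same held for the cathepsin list (1019 and 1638, 1364 and 1325), the colon epithelial markers and the lists of plasminogen and surface partners. It did not hold for the fibroblast, inhibitor, ADAM, AP-1 and Ets, and other MMP lists. The part of the leukocyte markers in the MMP levels was not tested.

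**Figure D3:**
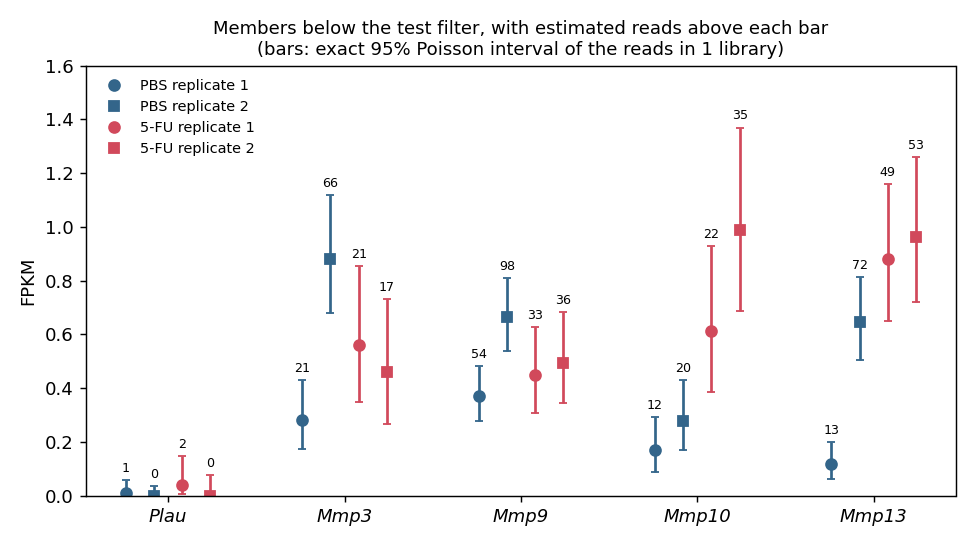
FPKM of the 5 members below the test filter in each library, with the exact 95% Poisson interval of the reads in that library and the estimated number of reads above each bar. Mmp10 and Mmp13 are highest in the 5-FU libraries, Mmp3 and Mmp9 are highest in PBS replicate 2, and Plau has at most 2 reads.

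Mmp13, Mmp3 and Mmp10 sit in a cluster of MMP genes on chromosome 9. Mmp13 runs from 7272514 to 7283331, Mmp3 from 7445822 to 7455975 and Mmp10 from 7502352 to 7510240, all on the plus strand. The table held 10 MMP genes within 427.1 kb there. The other 7, which include the collagenase genes Mmp1a, Mmp1b and Mmp8 and the matrilysin gene Mmp7, did not exceed 0.0306 FPKM in any library, and 5 of them were listed at 0 in all 4. The low but measurable MMP transcripts of the cluster were thus those of Mmp13, Mmp3 and Mmp10.

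The promoters of these 3 genes and of Plaur share an AP-1 motif. AP-1 is a dimer of Fos and Jun family proteins known to act on MMP and urokinase receptor promoters. RefSeq windows on GRCm38.p6, from 250 bases before to 50 after the RefSeq gene start, were found for 7 of the 9 members, all but Plau and Mmp9. The window of Timp2, 118355362 to 118355661 on the minus strand, lay wholly inside the gene coordinates given below (118301069 to 118355740). It therefore does not precede the gene start of those coordinates. The AP-1 motif TGANTCA, searched on both strands, occurred once in each window of Plaur, Mmp3, Mmp10 and Mmp13 and not in those of Mmp14, Timp1 and Timp2. Of all 32851 windows, 7.81% held it. The TATA motif TATAAA, in 13.62% of all windows, occurred in Mmp3, Mmp10 and Mmp13. The GC box GGGCGG, in 35.66% of all windows, occurred in Plaur, Mmp14, Timp1 and Timp2. The 150 bases before the start, shown to compare the layout of the promoters with the motif with that of Timp1, carry these 3 motifs in capitals.
Plaur, chr7:24462333-24462482, plus strand: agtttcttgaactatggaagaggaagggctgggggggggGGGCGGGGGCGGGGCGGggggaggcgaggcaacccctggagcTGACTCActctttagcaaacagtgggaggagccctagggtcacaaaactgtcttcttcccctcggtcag
Mmp3, chr9:7445672-7445821, plus strand: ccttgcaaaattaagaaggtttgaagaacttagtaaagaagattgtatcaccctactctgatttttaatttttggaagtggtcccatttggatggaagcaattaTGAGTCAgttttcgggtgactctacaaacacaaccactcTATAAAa
Mmp10, chr9:7502192-7502341, plus strand: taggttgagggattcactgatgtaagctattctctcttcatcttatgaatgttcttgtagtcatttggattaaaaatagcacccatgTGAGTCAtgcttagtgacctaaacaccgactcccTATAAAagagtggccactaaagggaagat
Mmp13, chr9:7272364-7272513, plus strand: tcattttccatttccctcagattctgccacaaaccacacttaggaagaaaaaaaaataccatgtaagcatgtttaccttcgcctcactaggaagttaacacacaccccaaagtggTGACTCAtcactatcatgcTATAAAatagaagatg
Timp1, chrX:20870016-20870165, plus strand: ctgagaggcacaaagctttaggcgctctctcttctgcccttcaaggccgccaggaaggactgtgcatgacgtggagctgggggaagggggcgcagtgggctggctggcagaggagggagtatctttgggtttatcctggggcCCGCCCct
The AP-1 motif began 69 bases before the start in Plaur, 46 in Mmp3, 63 in Mmp10 and 35 in Mmp13. In the 3 MMP promoters it was followed by the TATA motif, and in Plaur it was preceded by 3 GC boxes. The promoter of Timp1 held 1 GC box, read on the other strand. A motif match describes the letters of a window and is not a measured site.

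The transcription factor genes of the AP-1 and Ets families moved in both directions, as tested genes did as a whole. Of 16 tested, 3 rose, 6 fell and 7 did not pass, with a median log2 difference of -0.42. The shares over all tested genes were 22.1% higher and 31.2% lower. Fosl1, which encodes the AP-1 subunit Fra-1, measured 94.9 and 42 FPKM in PBS and 293.6 and 277.3 FPKM in 5-FU (log2 difference 2.16, adjusted p = 0.0119). As with Plaur, PBS replicate 1 was the higher of the PBS pair, while PBS replicate 2 was the higher for Mmp3, Mmp10 and Mmp13. Whether Fosl1 acts on any of these genes was not tested. Fos rose from 1.74 ± 0.146 to 4.19 ± 0.145 FPKM (n = 2 per group, limma adjusted p = 0.00667), and the Ets family gene Elk1 rose by 0.57 log2 (adjusted p = 0.0303). Jund fell 7.28-fold, from 31.3 ± 1.04 to 4.30 ± 0.551 FPKM, and Elk3 and Fosl2 fell 4.67-fold and 2.87-fold. Jun had means of 24.8 and 32 FPKM and did not pass (adjusted p = 0.105). Fosl1 and Elk1 did not pass with no filter on low values (adjusted p = 0.0574 and 0.0656), nor did Elk1 with the span trend removed (0.0578). Fos and Elk1 lost their calls when either 5-FU library was omitted, which left 1 factor higher and 4 (replicate 1 omitted) or 3 (replicate 2 omitted) lower. Omitting PBS replicate 1 or 2 gave 6 or 5 factors higher and 8 lower.

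Of the other MMP genes, Mmp11 alone was tested, among 18. Mmp11 encodes stromelysin-3, an MMP with little activity on matrix proteins, and measured 19.5 and 33.7 FPKM in PBS and 10.4 and 9.79 FPKM in 5-FU. Both 5-FU libraries were below both PBS libraries, and the gene fell 2.64-fold (log2 difference -1.27, adjusted p = 0.0186). Mmp11 did not pass when 5-FU replicate 2 was omitted (adjusted p = 0.0537) or when genes of low FPKM were kept in the fit (0.0714). Mmp2, whose gelatinase product MT1-MMP activates, was below 1 FPKM throughout, at 0.127 and 0.989 FPKM in PBS and 0.253 and 0.176 FPKM in 5-FU. PBS replicate 2 held about 139 of its reads and the other libraries 18, 18 and 12.

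Timp1 was the most abundant of the MMP inhibitor genes listed. It encodes a secreted inhibitor of most soluble MMPs that also binds proMMP-9, and lies on chromosome X from 20870166 to 20874735. It measured 130.7 and 123.6 FPKM in PBS and 189.3 and 168.2 FPKM in 5-FU. Both 5-FU libraries were above both PBS libraries. The mean rose 1.41-fold, from 127.1 ± 5.07 to 178.8 ± 14.9 FPKM (n = 2 per group), with a log2 difference of 0.49 ± 0.12 (SE, limma adjusted p = 0.0245). The call was lost in 6 of 15 alternative settings, with adjusted p up to 0.340, among them the fits without 5-FU replicate 1 or 2 and quantile normalization, where the log2 difference was 0.15. Timp1 spans 4570 bases, and tested genes under 10 kb had a median log2 difference of 0.18, with 31.1% passing as higher. With the trend with gene span removed, the log2 difference of Timp1 was 0.36 and it did not pass (limma adjusted p = 0.0578). The gene lies inside an intron of Syn1, on the opposite strand and with no shared exon, and Syn1 did not exceed 0.265 FPKM.

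Timp2, whose product inhibits MMPs and also takes part in MMP-2 activation on MT1-MMP, did not pass. The gene lies on chromosome 11 from 118301069 to 118355740, on the minus strand. It measured 41.2 and 46.1 FPKM in PBS and 36.5 and 33.4 FPKM in 5-FU. Both 5-FU libraries were below both PBS libraries, and the log2 difference was -0.31 ± 0.12 (SE, limma adjusted p = 0.0836). It passed, lower, in 3 of 15 alternative settings, those without PBS replicate 1 (adjusted p = 0.000900), without PBS replicate 2 (0.0192) and without mitochondrial and ribosomal protein genes (0.0389). Timp2 spans 54.7 kb, and tested genes of 50 to 200 kb had a median log2 difference of -0.47, with 47.1% passing as lower. With the trend with gene span removed, the log2 difference of Timp2 was -0.07. Cep295nl lies inside an intron of Timp2, on the same strand and with no shared exon, and measured 1.62 and 0.606 FPKM in PBS and 6.59 and 6.76 FPKM in 5-FU.

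The 6 other inhibitor genes were all below 1 FPKM in every library. Timp3, whose product is bound to the matrix, had about 8 and 15 reads in PBS and 4 and 4 in 5-FU. Timp4 measured 0.239 and 0.526 FPKM in PBS and 0.102 and 0.0342 FPKM in 5-FU. The ratio of Timp1 to Timp2 FPKM was 3.17 and 2.68 in PBS and 5.19 and 5.04 in 5-FU, with no overlap between the groups. Mmp14 to Timp2 was 1.03 and 1.10 in PBS and 1.32 and 1.45 in 5-FU. The summed TIMP level exceeded the summed level of the 5 MMP members by 3.97 and 3.18 times in PBS and 4.45 and 3.94 times in 5-FU, where the groups overlapped. These ratios are given as a description, with no test. An exact two-sided permutation test of a single value cannot give a p below 0.33 with 2 against 2 libraries.

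Of the 4 tested members, 3 had groups that did not overlap, against 81.0% of all tested genes. Their median log2 difference was 0.27, against -0.10 over all tested genes.

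**Figure D4:**
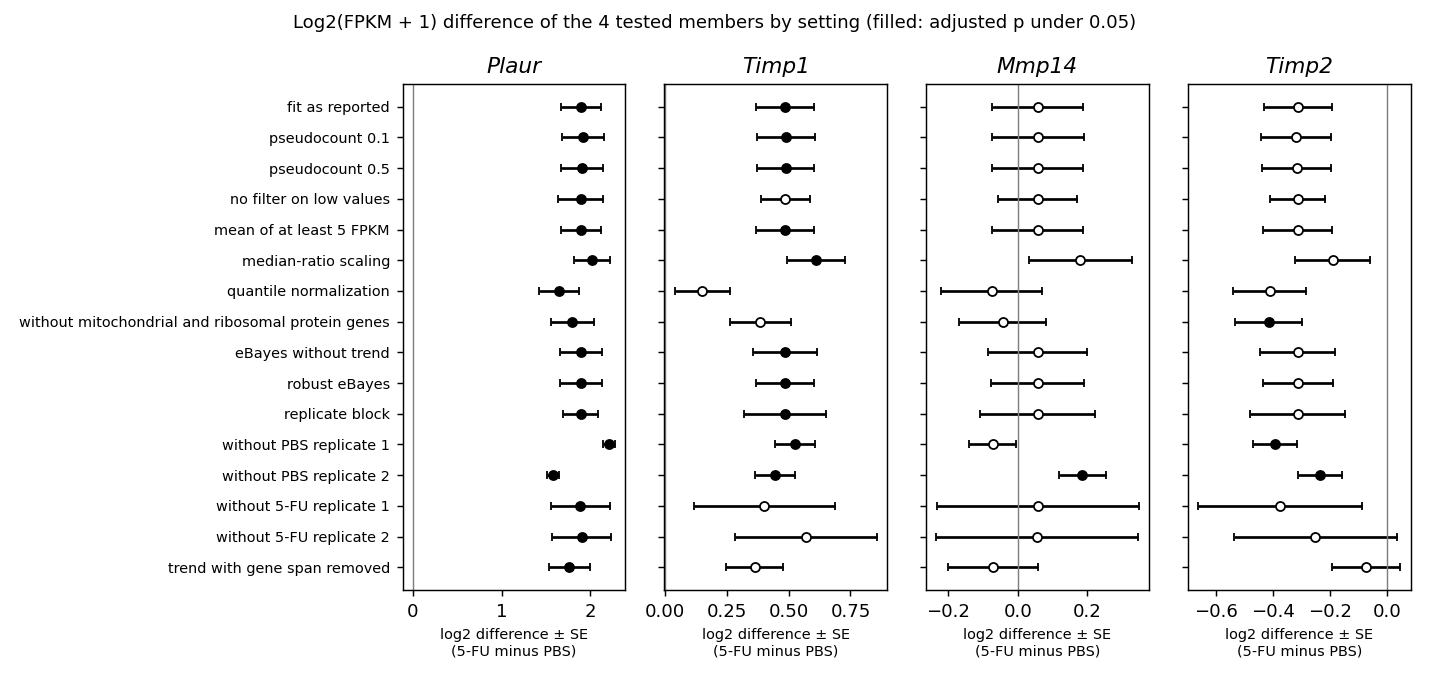
Log2(FPKM + 1) difference (5-FU minus PBS) with its SE for Plaur, Timp1, Mmp14 and Timp2 under the reported fit and 15 alternative settings; filled points have an adjusted p under 0.05. Plaur is filled in every setting, Timp1 is open in 6, Mmp14 lies on both sides of 0, and Timp2 is below 0 in all and filled in 3.

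Genes that act on MMPs at the cell surface moved in both directions, as tested genes did as a whole. Of 12 tested, 2 rose, 4 fell and 6 did not pass, with a median log2 difference of -0.42. The shares over all tested genes were 22.1% higher and 31.2% lower. Sdc4, a heparan sulfate proteoglycan gene, rose from 122 ± 6.23 to 176.1 ± 0.302 FPKM and Cd44, a hyaluronan receptor that docks MMPs, from 58.7 ± 4.19 to 80.1 ± 0.265 FPKM (n = 2 per group, limma adjusted p = 0.0148 and 0.0262). Cav1, the caveolin-1 gene, fell 2.09-fold and the tetraspanin gene Cd151 fell 1.72-fold. The calls of Sdc4 and Cd44 were lost in 3 and 5 of 15 settings, quantile normalization among them for both (adjusted p = 0.190 and 0.107). Omitting either 5-FU library left 0 of these genes higher and 2 lower. Omitting PBS replicate 1 gave 3 higher and 8 lower, and omitting PBS replicate 2 gave 4 higher and 6 lower.

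ADAM and ADAMTS proteases, related to the MMPs, shed membrane proteins and cut proteoglycans. Of 22 listed genes 11 were tested, of which 8 fell, 0 rose and 3 did not pass, with a median log2 difference of -1.50. Over all tested genes, 31.2% passed as lower and 22.1% as higher. Adam15, which did not pass, measured 24.3 and 24.7 FPKM in PBS and 25.5 and 24.3 FPKM in 5-FU, and the untested Adam22 measured 0.0653 and 0.0314 FPKM in PBS and 0.239 and 0.230 FPKM in 5-FU. Before adjustment, at a limma p under 0.05, 9 were lower and 0 higher. Adam10, the main sheddase of many receptors, measured 29.6 and 31.9 FPKM in PBS and 7.80 and 7.96 FPKM in 5-FU (3.90-fold lower, adjusted p = 0.00270). Adam9 fell 3.10-fold and Adamts14, a procollagen peptidase gene, 7.06-fold. The tested genes of this list had a median span of 45 kb, against 20 kb over all tested genes, and 8 were also lower with the span trend removed. Leaving out 1 library gave 6 or 7 lower.

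Cathepsins and cystatins, lysosomal proteases and their inhibitors, mostly did not pass. Of 11 tested, 2 rose, 0 fell and 9 did not pass, with a median log2 difference of -0.04. Over all tested genes, 22.1% passed as higher and 31.2% as lower. Before adjustment, at a limma p under 0.05, 3 of these 11 were higher and 1 lower. Ctsc rose from 4.65 ± 0.398 to 7.55 ± 0.482 FPKM (n = 2 per group, limma adjusted p = 0.0223). Ctsk, the cathepsin K gene, had about 1 read in each PBS library and 78 and 92 reads in 5-FU, at 2.46 and 2.94 FPKM. It begins 2.02 kb after the end of Arnt on the same strand, which measured 11.6 and 16 FPKM in PBS and 5.67 and 5.84 FPKM in 5-FU. With either 5-FU library omitted, Ctsc did not pass (adjusted p = 0.211 and 0.298), Ctsk did not reach the filter and was not tested, and 0 cathepsins or cystatins were higher or lower. Omitting PBS replicate 2 gave 7 higher and 1 lower, and omitting PBS replicate 1 gave 3 higher and 6 lower.

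**Figure D5:**
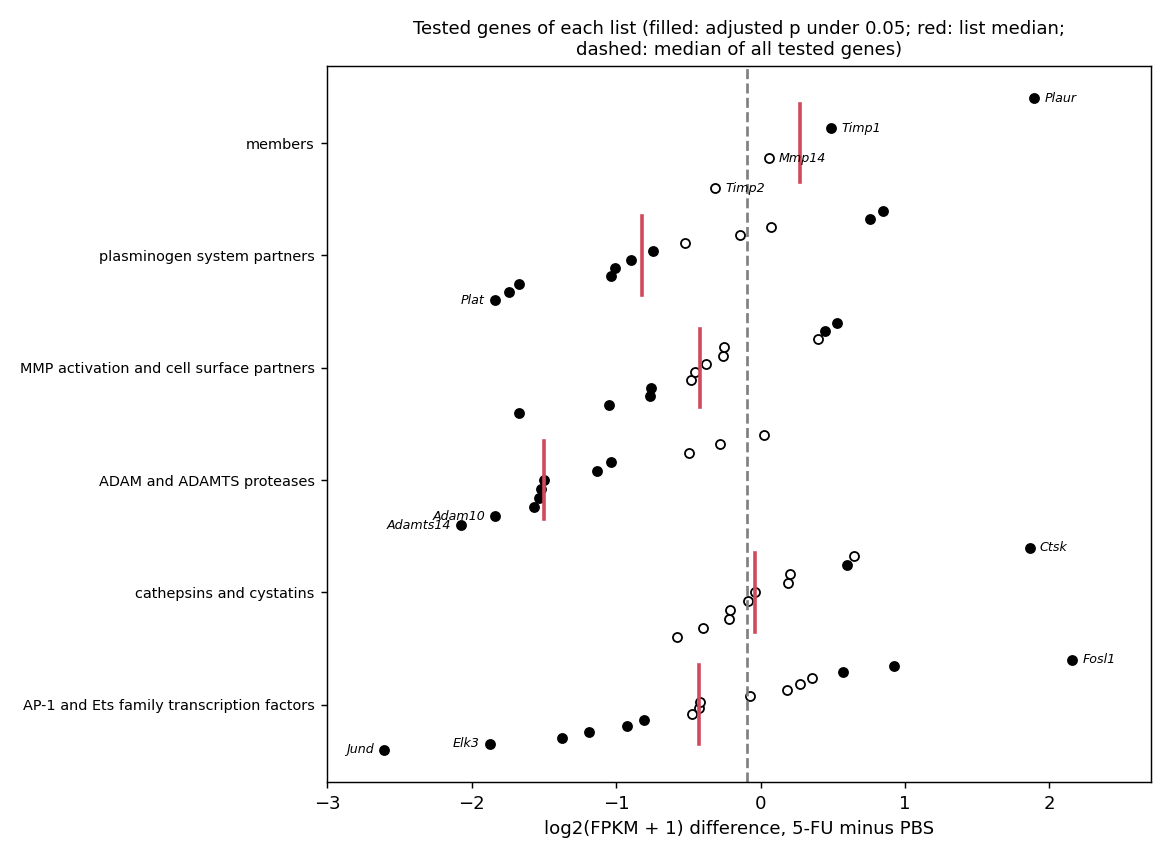
Log2(FPKM + 1) difference (5-FU minus PBS) of each tested gene, by list; filled points have an adjusted p under 0.05, red bars are list medians and the dashed line is the median of all tested genes. The ADAM and ADAMTS list has the lowest median (-1.50), and Plaur and Fosl1 lie at the far right of their lists.

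The genes whose pattern over the 4 libraries was nearest to a member were found by Euclidean distance between centred log2(FPKM + 1) values. For Plaur they were Armc7 (distance 0.0224) and Tbrg4 (0.0286). Armc7 measured 2.4 and 1.2 FPKM in PBS and 9.3 and 9.1 FPKM in 5-FU, and Tbrg4 41.1 and 26.4 FPKM in PBS and 128.6 and 124.1 FPKM in 5-FU. Adding 1 to FPKM shrinks the differences of a gene as low as Armc7, so nearness here is not an equal fold in FPKM. For Timp1 they were Gpat3 (0.0408) and Nr2c2ap (0.0438), for Timp2 Vps35l (0.0198) and Edem2 (0.0273), and for Mmp14 Ckap2l (0.0167) and Txndc5 (0.0206). With 4 libraries in 2 groups many genes are close by this measure.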

How the data were processed

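RNA sequencing of polyadenylated RNA was measured in 4 MC38 libraries, 2 per group. The authors deposited 1 table of FPKM values for 36445 genes. STAR 2.4.1a, Picard 2.9.0 and the GRCm38 build are named in the submitters' processing notes without their roles. Not given in the sources used here are the read counter, the annotation release and any strand setting. GENCODE release M21 (GRCm38) held 36379 of the gene IDs and lacked 66, and gave coordinates and exonic lengths. Depth was estimated from the commonest smallest step of FPKM times exonic length, and estimated reads are FPKM times length times this depth. With those lengths 63.2% to 65.2% of values under 100 reads fell within 0.02 of a whole read, so depths and reads are estimates.

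The comparison used limma 3.58.1 in R 4.3.3 (lmFit, eBayes with trend) on log2(FPKM + 1) for all genes that reached 1 FPKM in 2 or more of the 4 libraries. Tests were two-sided with Benjamini-Hochberg adjustment over all tested genes. Log2 differences on this scale understate changes of low genes, and each fold is a ratio of group means in FPKM. Data were also simulated with equal spread in all libraries and all genes, and with changes only in genes with a mean of at least 5 FPKM. There the fit recovered 89 of 90 genes changed by 1 log2 and 110 of 110 changed by 2. It called 13 of 11193 unchanged genes. Spread in the measured data differs between genes and between groups, so these rates may not hold for it. FPKM is relative to each library's total: over all tested genes the median log2 difference moved from -0.097 to 0.020 with median-ratio scaling and to -0.20 when mitochondrial and ribosomal protein genes were removed.

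Members and lists were chosen with earlier results of these data known. The naming rule took all 9 members, up to 3 genes per direction and list past the threshold with the largest log2 difference, Plat, Timp3, Mmp2 and Fosl1, and the 2 nearest genes of each tested member. Anxa2, Eno1, Plg, Jun, Timp4 and the chromosome 9 MMP genes, and the ratio of Timp1 to Timp2, were added after values were seen. One listed partner, Klkb1, was not analysed here, and another gene of the naming rule is counted in its list but is not reported here.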

Additional observations from a re-analysis of the deposited data

How the results depend on the processing

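The alternatives were 14 planned ones and 1, the removal of the trend with gene span, chosen after seeing the data. With 1 library left out, a lone library is taken to vary as the other group does, and the error comes from the wide PBS pair or the close 5-FU pair alone. Genes passing as higher then ranged from 481 to 4428 and as lower from 1311 to 4624; 2158 were lower at a mean of at least 5 FPKM. Members passing as higher ranged from 1 to 3 and as lower from 0 to 1. Besides these, 1 member was higher with no filter on low values, with quantile normalization, without mitochondrial and ribosomal protein genes and with the span trend removed, and 1 was lower without mitochondrial and ribosomal protein genes.

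Plaur kept its direction and call in all 15 settings (1.58 to 2.21 with 1 library left out). Timp1 kept its direction and did not pass with no filter (0.49, adjusted p = 0.0542), quantile normalization (0.15, 0.304), without mitochondrial and ribosomal protein genes (0.39, 0.0534) and with the span trend removed (0.36, 0.0578); it ranged from 0.40 to 0.57 with 1 library left out. Mmp14 turned negative, without passing, with quantile normalization (-0.076), without mitochondrial and ribosomal protein genes (-0.043), with the span trend removed (-0.072) and without PBS replicate 1 (-0.072), and ranged from -0.072 to 0.19 with 1 library left out. Timp2 was negative in all 15 and passed without mitochondrial and ribosomal protein genes (-0.42); it ranged from -0.39 to -0.23 when it passed without a PBS library.

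With 1 library left out, higher and lower counts ranged from 0 to 3 and 3 to 8 for plasminogen partners, 0 and 0 to 1 for other MMPs, 0 to 4 and 2 to 8 for MMP surface partners, 0 and 6 to 7 for ADAM genes, 0 to 7 and 0 to 6 for cathepsins, and 1 to 6 and 3 to 8 for AP-1 and Ets genes. With no filter, 5 plasminogen partners, 1 ADAM gene and 1 AP-1 or Ets gene were higher. At a mean of at least 5 FPKM, 4 plasminogen partners and 4 ADAM genes were lower and 1 cathepsin higher. With quantile normalization 0 surface partners were higher and 1 cathepsin lower, without mitochondrial and ribosomal protein genes 1 and 1. With eBayes without trend and with the span trend removed, 1 cathepsin was lower. With median-ratio scaling 5 AP-1 and Ets genes were higher. Where no cause is named above, the cause was not tested.

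The labels do not say that same-numbered libraries are paired, and their deviations correlated at -0.010. That value does not settle whether they were handled together. With the replicate number as a block, 2484 genes were higher and 3553 lower, 1 surface partner was higher (Cd44 did not pass, adjusted p = 0.0523), and Plaur and Timp1 passed (adjusted p = 0.000878 and 0.0433).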
